A study of Rattus norvegicus with 49 samples.

Results

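DNA replication genes are described here in rat liver and kidney after oral dosing with propylene glycol phenyl ether. They are 41 genes of origin licensing, replication, nucleotide supply and S phase entry that were listed by name. Of the 41, 38 had a probe set annotated to that gene alone and were measured, among 14217 genes in all. Cdc6, Gins2 and Rrm2 had no such probe set and were not analysed here. For the 9 members with several probe sets, the one with the highest mean over all arrays was used.

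Before a cell divides, the origin recognition complex and Cdt1 load the ring-shaped MCM2-7 helicase onto DNA, a step called licensing. In S phase Mcm10, Cdc45 and the GINS complex activate that helicase, primase and polymerase alpha start each strand, and polymerases delta and epsilon extend it while held by the sliding clamp Pcna. Transcription of many of these genes rises at the entry into S phase under E2F factors, and most hepatocytes and tubule cells of adult organs are not dividing.

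Male Harlan Sprague Dawley rats on the NTP-2000 diet, 6 to 8 weeks old at assignment, were gavaged with this glycol ether solvent in corn oil, at 5 mL/kg, on 5 consecutive days and killed on the day after the final dose. The doses were 0 (vehicle alone), 1, 10, 100, 500 and 1000 mg/kg, and a group at 2000 mg/kg gave no tissue. Each organ had 5 control arrays and 4 arrays per dose with compound, except that 3 kidney arrays of 500 mg/kg were analysed here. Controls and dosed rats did not differ in any other agent that the labels name, although the treatment text calls the compound MCHM where the title and sample labels give propylene glycol phenyl ether, which is followed here.

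RNA of each tissue sample was hybridised to 1 Affymetrix Rat Genome 230 2.0 array, giving 25 liver and 24 kidney arrays. The array medians, taken over the 14217 genes, were 6.47 to 6.62 in liver and 6.62 to 6.77 in kidney on the log2 scale. The labels call the samples biological replicates, and precision is limited by how many arrays each group had. Hepatocyte markers had mean levels of 13.10 to 13.51 in liver arrays and tubule markers 11.65 to 11.98 in kidney arrays, against 3.81 to 5.03 and 4.59 to 5.00 in the arrays of the other organ. The level of a member is its RMA log2 value, compared within an organ only. No detection calls were used, so values near 4 or below are not shown to lie above background. At or above the median gene level of the organ were 16 of the 38 members in liver and 15 in kidney. A member is called where limma's p, adjusted by Benjamini-Hochberg over 14217 genes, is under 0.05. In whole tissue, fewer replicating cells and less RNA per cell cannot be told apart.

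In kidney at 1000 mg/kg 5 of the 38 replication genes fell and 0 rose (limma). Called lower were 13.2% of the members and 1.04% of all genes, and called higher 0.506% of all genes. Mcm4, Mcm6 and Mcm2 are helicase subunits, Pcna is the sliding clamp and Prim1 is the catalytic primase subunit. Their falls were 1.25-fold to 1.53-fold. Mcm4, Mcm6 and Pcna were called in every alternative analysis in which they were tested, whereas Mcm2 lost its call in 11 of 19 and Prim1 in 12 of 18, and 3 to 6 members were called when single arrays were left out. The log2 change was negative for 34 members, or 89.5%, against 55.5% of all genes, and the median was -0.22 against -0.02 for all genes. At 1, 10, 100 and 500 mg/kg the log2 change was negative for 76.3%, 84.2%, 89.5% and 86.8% of members. Over all genes these shares were 52.8%, 57.6%, 58.0% and 51.7%, and every dose was set against the same 5 controls. In liver, 0 of the 38 members were called at any dose, where 0.0% to 1.05% of all genes were called. The liver median at 1000 mg/kg was -0.02 against 0.02 for all genes.

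**Figure D1:**
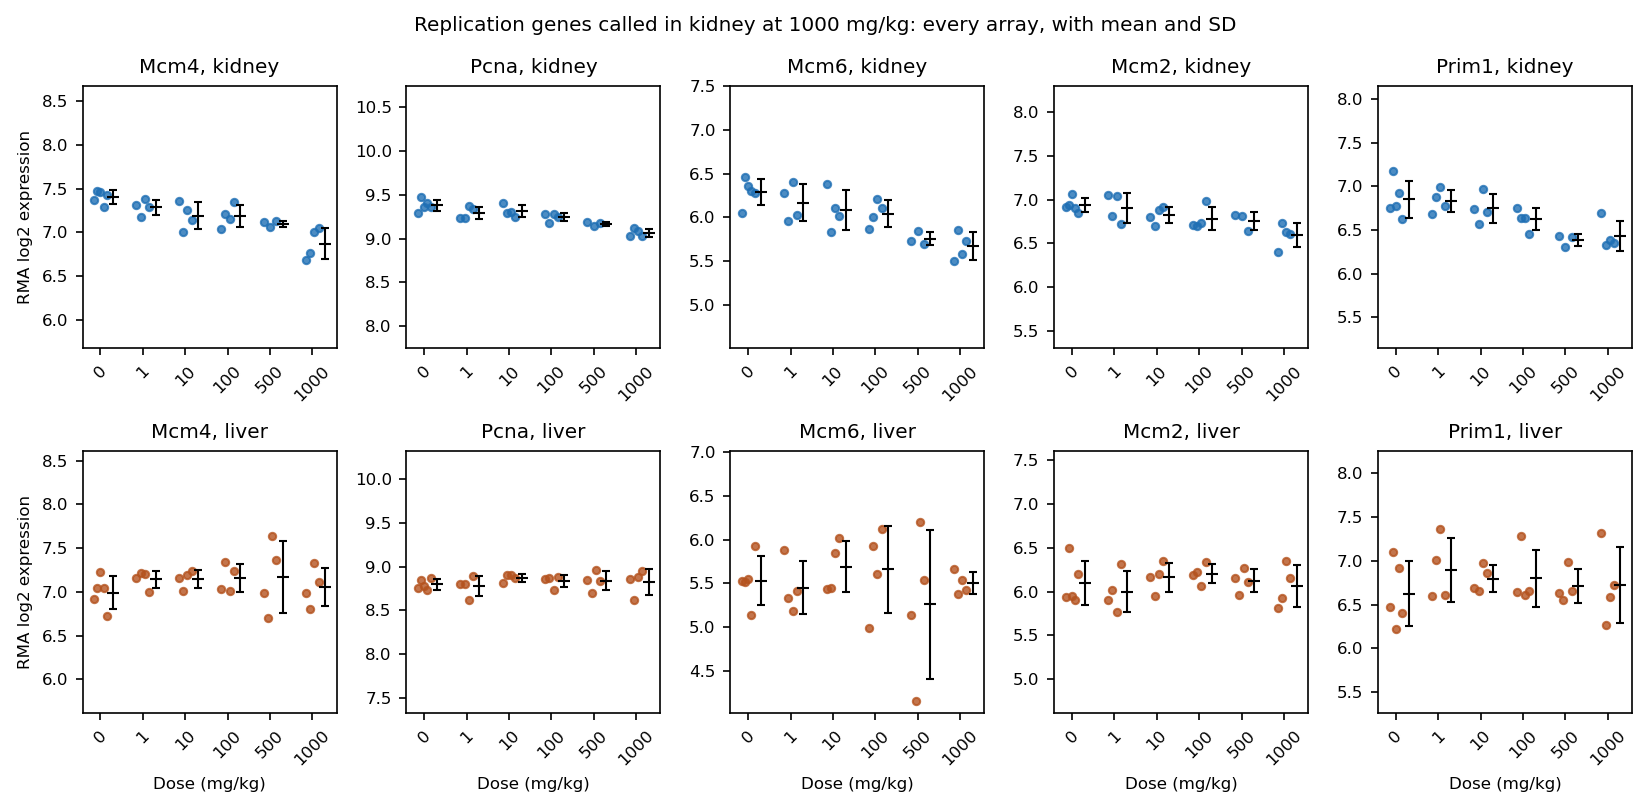
Values of the 5 members called in kidney at 1000 mg/kg, in kidney (top) and liver (bottom). Each point is 1 array, the bar and whiskers are the mean and SD of the dose group, the x axis is the dose in mg/kg and the y axis RMA log2 expression, spanning the same width in each panel. In kidney the 4 arrays of 1000 mg/kg lie below all 5 control arrays for Mcm4, Pcna, Mcm6 and Mcm2, and 1 Prim1 array lies above the lowest control.

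Of 9 measured licensing genes, the kidney had 3 that fell at 1000 mg/kg, where 1.04% of all genes fell. All 9 had a negative change, against 55.5% of all genes, with a median of -0.30. Mcm4 lay at 7.37, 7.47, 7.47, 7.29 and 7.42 in the 5 controls and at 6.68, 6.76, 7.0 and 7.05 at 1000 mg/kg. All arrays of the top dose were below all controls, and they formed a lower and a higher pair. The means were 7.40 ± 0.0773 (SD, n = 5) and 6.87 ± 0.178 (SD, n = 4), a fall of 1.44-fold (log2 change -0.53, SE 0.083, limma adjusted p = 0.000909).

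Mcm6 had the largest fall of the members, from 6.05, 6.46, 6.36, 6.30 and 6.27 in controls to 5.50, 5.86, 5.58 and 5.74. The groups did not overlap. Its mean fell 1.53-fold, with group means of 6.29 ± 0.152 (SD, n = 5) and 5.67 ± 0.16 (SD, n = 4) and a log2 change of -0.62 (SE 0.111, limma adjusted p = 0.00357). Mcm2 read 6.91, 6.94, 7.06, 6.90 and 6.85 in controls and 6.40, 6.73, 6.62 and 6.61 at 1000 mg/kg, again without overlap. It changed by -0.34 (SE 0.083, limma adjusted p = 0.0358). This call was lost in 11 of 19 alternative analyses, with adjusted p-values from 0.0238 to 0.155, whereas Mcm4 kept its call in 19 of 19 and Mcm6 in 18 of 18.

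The other subunits of the same ring had smaller or more variable differences. Mcm7 lay at 7.92, 8.09, 7.90, 7.91 and 7.98 in controls and at 7.74, 7.73, 7.70 and 7.66 at 1000 mg/kg, below every control, with a log2 change of -0.26 that was not called (limma adjusted p = 0.110). Mcm3 and Mcm5 had changes of -0.30 and -0.29 and were not called (limma adjusted p = 0.278 and 0.369). In both, replicate 2 of 1000 mg/kg lay within or above the control range and the other 3 arrays below it. Cdt1, the loading factor, had a change of -0.39 (95% interval -0.64 to -0.14). Its inhibitor Gmnn (geminin) had -0.17 and Orc1, of the origin recognition complex, -0.13.

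The promoters of Mcm6 and Mcm2 are shown because, among the members called in kidney at 1000 mg/kg that have a promoter entry, these hold an E2F motif. Each sequence is the 250 bases before the RefSeq start, 5′ to 3′ on the gene's strand, from build GRCr8, with the motif letters in capitals. Mcm6 is taken from chr13:42404353-42404602, minus strand, and Mcm2 from chr4:122918095-122918344, minus strand.
Mcm6: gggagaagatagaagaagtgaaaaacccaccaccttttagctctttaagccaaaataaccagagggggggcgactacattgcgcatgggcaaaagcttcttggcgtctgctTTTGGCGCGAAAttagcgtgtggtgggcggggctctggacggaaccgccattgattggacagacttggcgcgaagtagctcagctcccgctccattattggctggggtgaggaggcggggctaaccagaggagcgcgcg
Mcm2: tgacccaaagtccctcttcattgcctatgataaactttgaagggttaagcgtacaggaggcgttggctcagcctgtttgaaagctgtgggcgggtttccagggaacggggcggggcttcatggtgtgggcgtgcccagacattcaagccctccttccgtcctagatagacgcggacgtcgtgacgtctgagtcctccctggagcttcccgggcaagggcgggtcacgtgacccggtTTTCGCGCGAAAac
In Mcm6 the capitals are TTTGGCGC, whose first base lies 139 bases before the start, and, overlapping it, GCGCGAAA, which is TTTCGCGC on the other strand. In Mcm2 they are TTTCGCGC, whose first base lies 14 bases before the start, and again GCGCGAAA overlapping it.

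E2F motifs were common among the promoters of the measured members. TTTCCCGC, TTTGGCGC, TTTCGCGC or TTTGCCGC, on either strand, occurred in the window of 250 bases before to 50 after the start of 16 of 34 members with an entry, or 47.1%, against 2.37% of 27457 genes. In the 250 bases before the start alone the counts were 9 of 34, or 26.5%, against 1.91%. The NF-Y motif CCAAT occurred in 55.9% of members and 39.6% of genes, and the CHR motif TTTGAA in 5.88% and 19.4%, over the wider window. Among the 9 members with a kidney dose trend, described further on, 7 had an entry and 5 of them an E2F motif. Among the other 29 members, 27 had an entry and 11 an E2F motif. A match is a run of letters and not a shown binding site. Orc1, Mcm4, Ccne2 and E2f1 had no entry.

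Of the 3 measured genes of helicase activation, 0 were called in kidney at 1000 mg/kg, against 1.55% of all genes. Gins1, a GINS subunit, lay at 4.30, 4.54, 4.44, 4.33 and 4.75 in controls and at 3.97, 4.07, 4.16 and 4.07 at 1000 mg/kg. The groups did not overlap, and the log2 change was -0.40 (95% interval -0.63 to -0.18, limma adjusted p = 0.0688). The dosed Gins1 levels, near 4, are not shown to lie above background. Mcm10, an activating factor, and Cdc45, the helicase cofactor, had changes of -0.04 and 0.01, with 95% intervals of -0.28 to 0.19 and -0.23 to 0.24.

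The 2 primase subunits had kidney changes of opposite sign. Prim1 read 6.75, 7.18, 6.77, 6.93 and 6.63 in controls and 6.69, 6.32, 6.38 and 6.35 at 1000 mg/kg. The first of these dosed arrays stood inside the control range and the other 3 below it. The mean fell 1.33-fold, with group means of 6.85 ± 0.21 (SD, n = 5) and 6.44 ± 0.171 (SD, n = 4) and a log2 change of -0.42 (SE 0.104, limma adjusted p = 0.0431). The call was lost in 12 of 18 alternatives, with adjusted p-values from 0.0178 to 0.160.

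Prim2, the regulatory primase subunit, read 7.81, 7.51, 7.34, 7.71 and 7.90 in controls and 8.15, 8.02, 8.24 and 7.90 at 1000 mg/kg. The top of the control range and the lowest dosed array met at 7.90. It had the highest kidney change of the members, a log2 change of 0.42 that did not pass (95% interval 0.16 to 0.68, limma adjusted p = 0.0990), and its adjusted p ranged from 0.0267 to 0.282 over the alternatives. Its changes at 1, 10, 100 and 500 mg/kg were 0.19, 0.32, 0.26 and 0.10, positive at each dose and not called. The polymerase subunits Pola1, Pola2, Pole and Pold1 had changes of -0.26, -0.25, -0.20 and -0.10, none called.

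In the clamp and its loader, Pcna had the most even fall. It lay at 9.30, 9.47, 9.37, 9.41 and 9.37 in controls and at 9.03, 9.12, 9.09 and 9.03 at 1000 mg/kg. All dosed arrays were below all controls, and both groups were narrow. The mean fell 1.25-fold, with group means of 9.38 ± 0.0656 (SD, n = 5) and 9.06 ± 0.045 (SD, n = 4) and a log2 change of -0.32 (SE 0.052, limma adjusted p = 0.00142), and the call was kept in 19 of 19 alternatives. None of the 5 subunits of the loader RFC was called, where 1.55% of all genes were. Rfc4, Rfc3, Rfc2, Rfc1 and Rfc5 had changes of -0.23, -0.19, -0.14, -0.02 and -0.01.

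The remaining roles held no called member in kidney at 1000 mg/kg, where 1.55% of all genes were called. Lig1, the ligase that joins Okazaki fragments, read 7.05, 6.92, 7.12, 7.0 and 7.05 in controls and 6.67, 6.87, 6.92 and 6.92 at the top dose, a change of -0.18 (limma adjusted p = 0.262). The flap nuclease Fen1 had -0.25, and the single-strand binding proteins Rpa2 and Rpa1 had -0.13 and 0.11. Tk1, the thymidine salvage kinase of S phase, lay at 6.92, 7.12, 6.88, 6.76 and 6.86 in controls and at 6.70, 6.63, 6.67 and 6.30 at 1000 mg/kg. These groups did not overlap, and the change was -0.33 (limma adjusted p = 0.121). The other probe sets of Tk1 gave -0.17 and 0.02, the other one of Lig1 -0.08 and that of Ccne2, a cyclin of S phase entry, -0.08. The other probe sets of Cdc45 gave -0.23, 0.05 and 0.18, that of Gmnn 0.13, that of Mcm10 0.09 and those of Rfc1 -0.01 and 0.24. The values of these members differ between probe sets, and none of the probe sets was called. Tyms, thymidylate synthase, Rrm1, the large ribonucleotide reductase subunit, and Dut, which removes dUTP, had changes of -0.13, -0.13 and 0.04.

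E2f1, a transcription factor of S phase entry, lay at 5.24, 5.45, 5.22, 5.29 and 5.39 in kidney controls and at 4.99, 4.83, 4.85 and 5.05 at 1000 mg/kg, without overlap. Its log2 change was -0.39 (95% interval -0.63 to -0.15, limma adjusted p = 0.104). The E cyclins Ccne2 and Ccne1, partners of Cdk2, had changes of -0.37 and -0.25. Uhrf1, which guides maintenance DNA methylation at the fork, read 3.84, 4.51, 3.77, 3.72 and 4.01 in controls and 3.62, 3.59, 2.96 and 3.46 at the top dose. Its groups did not overlap and its change was -0.56 (limma adjusted p = 0.115), at levels not shown to lie above background. Hells, a chromatin remodeller, had -0.19, and Chaf1b, of the histone chaperone CAF-1, -0.03.

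**Figure D2:**
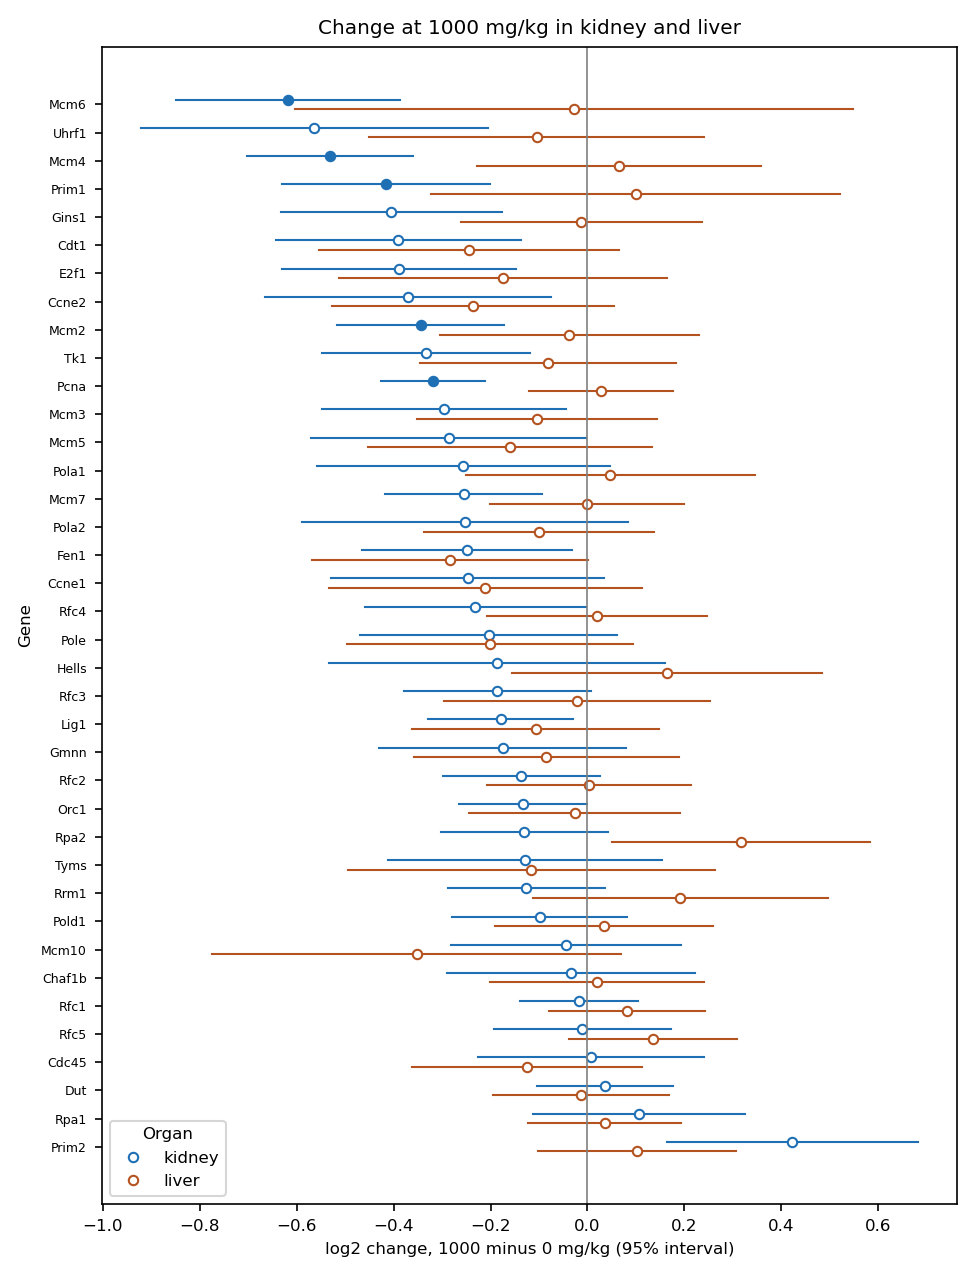
Log2 change at 1000 mg/kg against controls for the 38 members, with 95% intervals, in kidney (blue) and liver (orange brown). Filled points are called by limma and open points are not. Members are ordered by their kidney change, from -0.62 for Mcm6 to 0.42 for Prim2, and 34 of the 38 kidney points lie below 0. In liver 23 of 38 do, against 45.7% of all genes.

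Counted without the test, 10 of 38 members had all 4 kidney arrays of 1000 mg/kg below all 5 controls, or 26.3% against 3.09% of all genes. They were Mcm2, Mcm4, Mcm6, Mcm7, Cdt1, Gins1, Pcna, Tk1, E2f1 and Uhrf1, and 0 members had all dosed arrays above the controls (1.62% of all genes). The dosed levels of Gins1 and Uhrf1 are not shown to lie above background. At an unadjusted limma p under 0.05, 18 members were lower, or 47.4% against 8.57% of all genes, and 1 was higher (4.76% of all genes). With arrays centred on their medians, 4 members fell and 0 rose, while over all genes the lower and higher calls moved from 148 and 72 to 107 and 138.

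At 500 mg/kg 0 members were called in kidney, against 0.0% of all genes (limma). At an unadjusted p under 0.05, 15 members were lower, or 39.5% against 2.86% of all genes, and 0 were higher (2.22% of all genes). The 3 arrays lay below all 5 controls for 12 members, or 31.6% against 2.55%. These were all 6 subunits of the MCM ring, Cdt1, Gins1, Pcna, Prim1, Rpa2 and E2f1. Mcm6 was at 5.73, 5.84 and 5.70, Prim1 at 6.43, 6.31 and 6.43, Mcm4 at 7.12, 7.06 and 7.13 and Pcna at 9.19, 9.14 and 9.17. For these 4 genes each array of 500 mg/kg was below the control range. Mcm5, which was not called at 1000 mg/kg, had its lowest group mean here, with a log2 change of -0.45 and arrays at 5.93, 5.47 and 5.47 against controls of 5.95 to 6.18.

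The kidney values of 1000 mg/kg were also set against those of 500 mg/kg. In this contrast 0 members were called, against 0.0% of all genes (limma). At an unadjusted p under 0.05 there were 2, or 5.26% against 5.82%, and the median difference was -0.01. Those 2 were Mcm4, with a difference of -0.23 (95% interval -0.42 to -0.03), and Prim2, with 0.33 (95% interval 0.03 to 0.62). The differences of Mcm6, Prim1 and Pcna were -0.09, 0.05 and -0.10, with 95% intervals of -0.35 to 0.18, -0.20 to 0.29 and -0.23 to 0.02. The 17 measured mitosis genes had a median difference of -0.55 in the same contrast, with 0 called. Both doses are compared with the same 5 control arrays.

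Below 500 mg/kg the kidney changes were smaller in the median. The median change of the members was -0.05, -0.10 and -0.13 at 1, 10 and 100 mg/kg, in that order, and 0 members were called at these doses, against 0.0% of all genes (limma). At an unadjusted p under 0.05, 0, 2 and 8 members were lower at these doses, against 1.46%, 4.23% and 4.7% of all genes. At 100 mg/kg Mcm4 was at 7.04, 7.21, 7.16 and 7.34, Mcm6 at 5.86, 6.00, 6.21 and 6.10, and Pcna at 9.28, 9.18, 9.28 and 9.25. All 4 Pcna arrays were below the lowest control, and those of Mcm4 and Mcm6 overlapped the controls.

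A fit of kidney expression on dose rank, from 0 for controls to 5 for 1000 mg/kg, called 9 members, all falling, or 23.7% against 1.03% of all genes. Mcm4, Mcm6 and Pcna changed by -0.09, -0.12 and -0.06 on the log2 scale per step of dose (limma adjusted p = 0.000253, 0.000259 and 0.000283). Prim1 changed by -0.10 and Mcm2 by -0.06 per step. The other 4 were Mcm7 (-0.06), Cdt1 (-0.09), Gins1 (-0.07) and E2f1 (-0.08), whose adjusted p-values were 0.0181, 0.0226, 0.0373 and 0.0486. Levels of Gins1 at 1000 mg/kg are not shown to lie above background. Cdt1 is named after its values were seen. Its kidney arrays were at 4.66, 4.77, 4.69, 4.93 and 4.72 in controls and at 4.42, 4.57, 4.21 and 4.24 at 1000 mg/kg, without overlap. Without control replicate 2 the trend called 5 members.

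**Figure D3:**
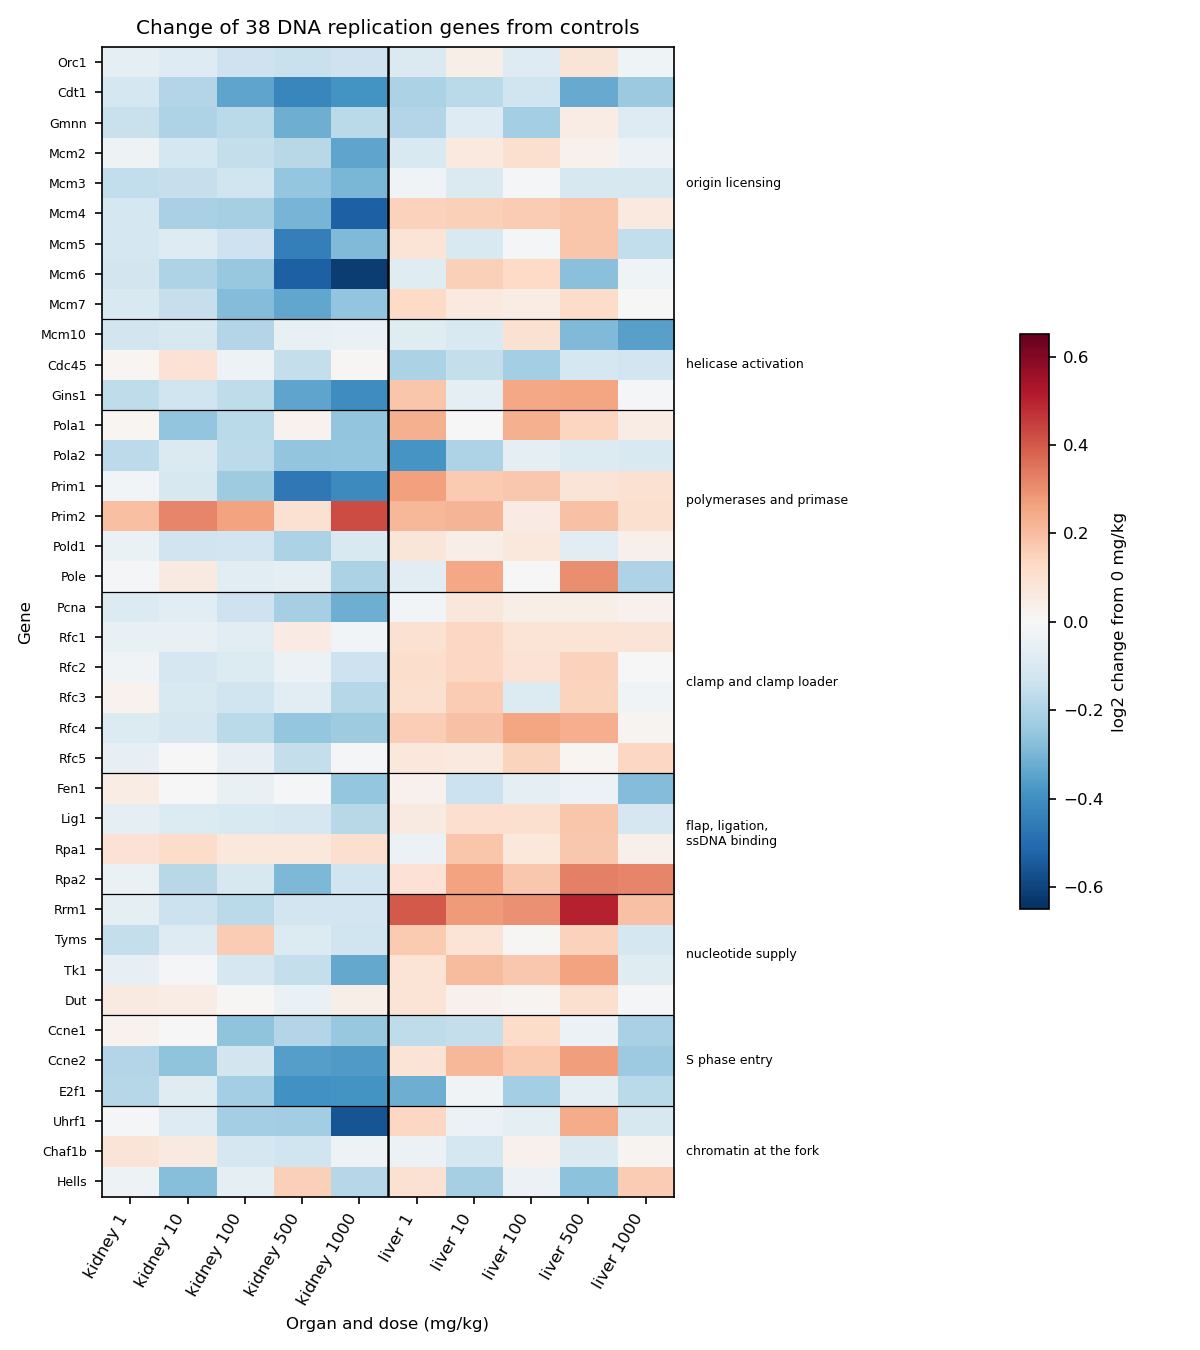
Log2 change from controls of the 38 members (rows, grouped by role) at each of the 5 doses with compound (columns, in mg/kg) in kidney (left) and liver (right). Blue is lower and red higher than the controls of the same organ, and no cell of this map is by itself a call. In kidney all 9 licensing genes are blue at 500 and at 1000 mg/kg, darkest for Mcm6 (-0.53 and -0.62), and the liver columns hold both colours.

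In liver at 1000 mg/kg 0 of 38 members were called, against 1.05% of all genes (limma). At an unadjusted p under 0.05 there was 1 member, or 2.63% against 12.4% of all genes. That member was Rpa2, a subunit of the single-strand binding complex. It read 5.80, 5.15, 5.87, 5.51 and 5.71 in controls and 5.74, 5.86, 6.08 and 6.01 at 1000 mg/kg. The groups overlapped, and the change was 0.32 (95% interval 0.05 to 0.58, limma adjusted p = 0.296).

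The genes that fell in kidney were not called in liver at the same dose. Pcna lay at 8.76, 8.85, 8.77, 8.74 and 8.87 in liver controls and at 8.86, 8.61, 8.88 and 8.95 at 1000 mg/kg, a change of 0.03 with a 95% interval of -0.12 to 0.18. Mcm4 was at 6.92, 7.05, 7.23, 7.05 and 6.73 in controls and at 6.99, 6.80, 7.33 and 7.11 at 1000 mg/kg, a change of 0.07 (95% interval -0.23 to 0.36). The groups overlapped for both genes. Mcm6, Mcm2 and Prim1 had changes of -0.03, -0.04 and 0.10, with 95% intervals of -0.60 to 0.55, -0.31 to 0.23 and -0.32 to 0.52. Of these 5 intervals, those of Mcm6 and Prim1 were the widest.

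Fen1 and E2f1 were the members whose liver arrays of 1000 mg/kg all lay below all controls, 5.26% of members against 1.73% of all genes. Fen1 read 6.15, 6.20, 6.04, 5.97 and 6.10 in controls and 5.60, 5.91, 5.96 and 5.75 at 1000 mg/kg, a change of -0.28 (limma adjusted p = 0.402). E2f1 read 5.02, 4.81, 4.75, 4.77 and 4.76 in controls and 4.58, 4.68, 4.70 and 4.63 at 1000 mg/kg, a change of -0.18 (limma adjusted p = 0.725). The Fen1 interval, -0.57 to 0.00, reached 0. The activation factor Mcm10 had the lowest liver change of the members. It read 6.39, 5.97, 5.89, 5.67 and 5.96 in controls and 5.81, 5.81, 5.45 and 5.42 at 1000 mg/kg, overlapping, with a change of -0.35 (limma adjusted p = 0.501). Its other probe set gave -0.61, also not called.

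Of the other liver members by role, Ccne2 had a change of -0.24 and Ccne1 one of -0.21 in S phase entry, Cdt1 -0.24 and Mcm5 -0.16 in licensing, and Pole -0.20 among the polymerases. Rfc5, Rrm1 and Hells had positive changes of 0.14, 0.19 and 0.16. None of these 8 passed, and their adjusted p-values lay between 0.522 and 0.726 (limma). Ccne2 read 4.34, 3.96, 4.41, 4.06 and 4.27 in controls and 3.90, 3.81, 4.28 and 3.89 at 1000 mg/kg, so that 3 of 4 dosed arrays were below all controls. These levels are not shown to lie above background.

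At 500 mg/kg the liver had 0 members called, against 0.0492% of all genes (limma), and 7 with an unadjusted p under 0.05, or 18.4% against 10.7% of all genes, of which 6 were higher (7.48% of all genes). Rrm1 had the largest positive change, 0.50, with arrays at 7.04, 6.65, 7.41 and 7.16 against controls at 6.26, 6.40, 6.81, 6.79 and 6.55. Its groups overlapped, and it was not called (limma adjusted p = 0.189). At 1, 10, 100 and 1000 mg/kg its changes were 0.40, 0.28, 0.30 and 0.19, also not called. Replicate 3 of this group stood apart. It was the highest of the 25 liver arrays for 17 of 38 members, against 4.71% of all genes, and its mean over the members lay 0.30 above the control mean, where the mitosis genes lay 1.16 above. For Mcm6 it read 6.20 and the others 5.14, 4.16 and 5.54. Without this array the liver counts of called members were also 0 at 500 mg/kg, for the highest dose and for the trend.

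The liver dose trend called 0 members against 0.661% of all genes (limma), with 1 at an unadjusted p under 0.05 against 11.7%. At 1, 10 and 100 mg/kg 0 members were called, against 0.0%, 0.00703% and 0.0% of all genes (limma), with 3, 2 and 2 at an unadjusted p under 0.05, against 9.45%, 9.22% and 9.18%. Between 500 and 1000 mg/kg the liver again had 0 called members, against 0.00703% (limma). At an unadjusted p under 0.05, 6 members were lower at 1000 than at 500 mg/kg, or 15.8% against 3.87% of all genes, of 7 that passed in either direction (6.55% of all genes), with a median difference over the 38 members of -0.11. Replicate 3 of 500 mg/kg is part of that contrast.

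**Figure D4:**
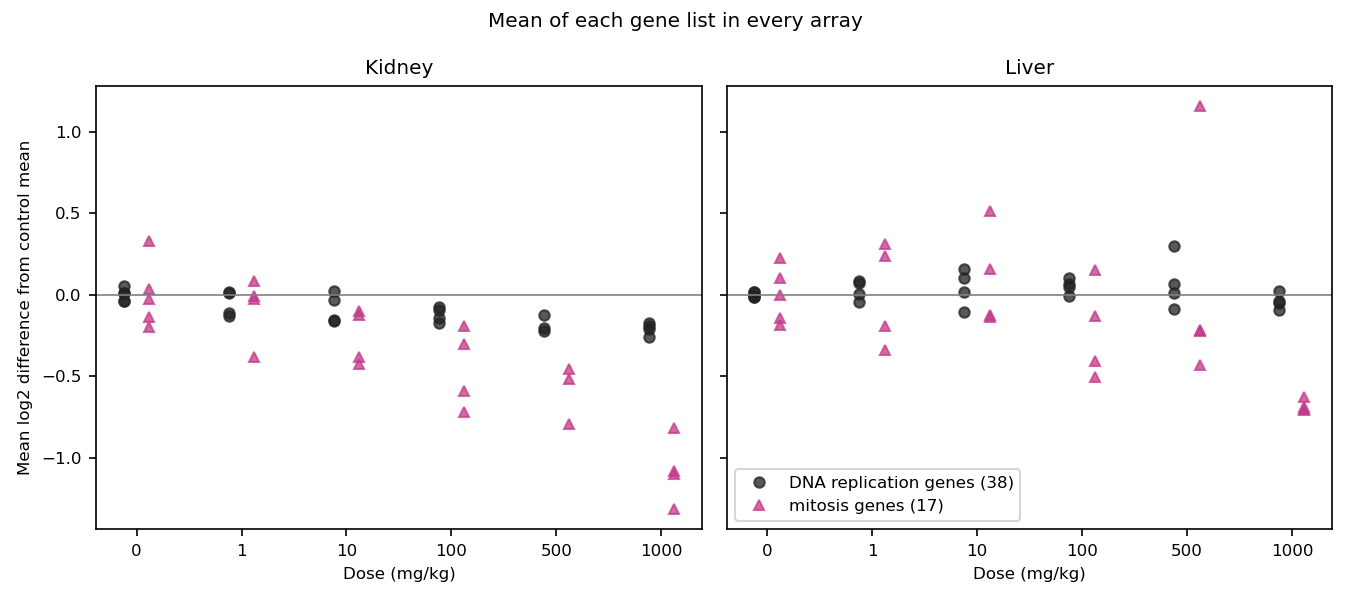
Mean log2 difference from the control mean over the 38 replication genes (circles) and 17 mitosis genes (triangles) in every array, by dose in mg/kg, in kidney (left) and liver (right). Each symbol is 1 array. The kidney circles of 1000 mg/kg lie between -0.26 and -0.17, below all 5 controls, and the liver triangles of 1000 mg/kg between -0.71 and -0.63, where the liver circles lie between -0.09 and 0.02.

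The difference between the organs was tested for each gene over all 49 arrays, as the liver change minus the kidney change at 1000 mg/kg. The labels do not say which liver and kidney samples came from the same rat. The arrays were therefore treated as independent, without an animal block, and any such pairing was left out of the test. It called 1 member, or 2.63% against 0.626% of all genes. This was Pcna, with a difference of 0.35 (SE 0.085, limma adjusted p = 0.0403). The count was 0 with arrays centred on their medians, with quantile normalization or with a replicate block. It was also 0 without kidney control replicate 2, 3 or 4, any kidney array of 1000 mg/kg, liver control replicate 1, 3 or 4, or liver replicate 1, 3 or 4 of 1000 mg/kg. Mcm4 had the next smallest p, a difference of 0.60 (95% interval 0.26 to 0.93, limma adjusted p = 0.0933). For Mcm6, Mcm2 and Prim1 the difference was not called, so that their falls in kidney are not shown to differ from the liver. The median difference over the 38 members was 0.15 against 0.04 for all genes.

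Per array, the mean of the members relative to controls lay between -0.26 and -0.17 at 1000 mg/kg in kidney, between -0.22 and -0.12 at 500 mg/kg and between -0.04 and 0.06 in controls. Of the 38 members, 29 to 34 were below the control mean in each array of 1000 mg/kg. The same count was 12 to 26 in controls, 16 to 31 at 1 mg/kg and 16 to 32 at 10 mg/kg. It was 27 to 31 at 100 mg/kg and 28 to 32 at 500 mg/kg. Replicate 1 of 1000 mg/kg was the lowest of 24 kidney arrays for 12 members (9.66% of all genes), and control replicate 2 the highest for 12 (6.69% of all genes). Without control replicate 1, 2, 3 or 4, or without replicate 3 or 4 of 1000 mg/kg, 3 members were called at 1000 mg/kg.

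Other genes of the replication machinery were read from lists in kidney at 1000 mg/kg. Of 28 measured replisome and licensing genes outside the members, 3 fell and 1 rose, against 1.04% and 0.506% of all genes. Their median was -0.07. Top2a, the topoisomerase of replicated chromosomes, had means of 6.00 ± 0.358 (SD, n = 5) in controls and 4.67 ± 0.214 (SD, n = 4) at this dose and fell by 1.33 on the log2 scale (limma adjusted p = 5.5e-05). Timeless, of the fork protection complex, changed by -0.47 and Orc3 by -0.33, and Pold4, the small subunit of polymerase delta, rose by 0.35 (limma adjusted p = 0.0240, 0.0446 and 0.00357). The other probe set of Orc3 gave -0.03 and was not called, and that of Top2a gave -0.93. Of 12 other nucleotide supply genes 0 were called, against 1.55% of all genes (limma). An unadjusted p under 0.05 was found for 2 of the 12, against 13.3% of all genes, and the median was -0.14. Of 7 chromatin assembly genes Asf1b, a histone chaperone, fell by 0.58, and of 20 E2F and RB regulators 1 fell, the cyclin Ccna2. The Asf1b means were 3.64 in controls and 3.06 at 1000 mg/kg, levels not shown to lie above background. In liver these lists held 1 call, the cyclin Ccnd1, which fell by 1.62 on the log2 scale, where 1.05% of all genes were called. Ccna2 was not called in liver, with a change of -1.76 (limma adjusted p = 0.0574) beside -1.97 in kidney. Its liver means were 4.48 in controls and 2.73 at 1000 mg/kg, the latter not shown to lie above background.

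Mitosis genes had medians further from 0 than the replication genes. In kidney at 1000 mg/kg 15 of 17 fell, against 1.04% of all genes, with a median of -1.06 beside -0.22 for the members. In liver 2 of 17 fell, against 0.309% of all genes, with a median of -0.42 beside -0.02. No test compared the lists.

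Markers of other cells were read in the same kidney arrays. The mean of 7 adipocyte markers, relative to controls, lay between -0.50 and -0.21 at 1000 mg/kg. It was 0.71 in control replicate 4 and above 0.5 in 6 arrays of 1 to 500 mg/kg. Without the arrays above 0.5, and with this mean as a covariate, 3 members fell at 1000 mg/kg, Mcm4, Pcna and Mcm6. The mean of 8 macrophage markers lay between -0.31 and -0.17 at 1000 mg/kg and between -0.09 and 0.12 in controls, and 1 of the 8, Adgre1, fell. The part of macrophages in the result was not tested. Of 8 tubule, 7 lymphocyte and 5 erythroid markers 0 were called in kidney at this dose (limma), and the tubule markers' mean level was 11.78 to 11.92 at 1000 mg/kg against 11.80 to 11.98 in controls.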

How the data were processed

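Expression was measured in liver and kidney of dosed and control rats on 49 arrays. The deposited values are log2 expression per probe set, made by the authors with RMA (background correction, quantile normalization and probe summary) per the submitters' processing notes. The version of RMA, and whether both organs were normalized together, are not given in the sources used here, so levels are compared within an organ.

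Of 31099 probe sets, 20826 had 1 gene symbol in the platform annotation, 436 several and 9780 none, and 57 were controls. A gene with several such probe sets was read from the one that was brightest on average over the 49 arrays. limma 3.58.1 in R 4.3.3 (lmFit and eBayes, all dose groups of an organ in 1 fit) gave each comparison, with Benjamini-Hochberg adjustment over 14217 genes. Intervals are 95% intervals of that fit. The fit was tested on simulated data. Other steps used Python 3.11.15 with pandas 2.3.3.

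In each organ the 10 members that ranked first by p at 1000 mg/kg and the first of each role were named. Values by array were given for all of these in kidney and for some of them in liver. Up to 4 genes per pathway list were named, without values by array. The members and lists were chosen with earlier results of these data known. Alternatives used averaged probe sets, a filter at the median level, quantile normalization, centring, robust moderation, array weights, a replicate block, the 2 groups alone, each array left out in turn, and adipocyte markers as covariate or limit. Promoters come from RefSeq (GRCr8), 34 of 38 members matched, and both windows were looked at before the wider one was taken.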

Additional observations from a re-analysis of the deposited data

Results flagged for a closer look

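A total of 137 groups of member values were checked for 1 array far from the others, and 4 were found, where chance alone flags about 1 in 20 groups. Cdt1 in liver at 100 mg/kg read 3.73 in replicate 4 against 4.11 to 4.17 in the other 3 arrays. Mcm2 in kidney at 100 mg/kg read 6.98 in replicate 4, above the other arrays at 6.70 to 6.73. Prim1 in kidney at 1000 mg/kg read 6.69 in replicate 1, above 6.32 to 6.38, and this array is the one that overlapped the controls. Lig1 in kidney at 1 mg/kg read 7.10 in replicate 2, above 6.91 to 6.94. The change of Pcna at 1000 mg/kg differed between the organs, by 0.35 on the log2 scale as liver minus kidney (limma, Benjamini-Hochberg adjusted p = 0.0403). That call was lost with quantile normalization, with centring, with a replicate block and without most single arrays of the contrast, where 0 to 2 members were called.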

How the results depend on the processing

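In kidney at 1000 mg/kg, 5 members were called, and 3 when tested among genes at or above the median level (15 members left), with arrays rich in adipocyte markers left out, or with those markers as covariate. Leaving out each array in turn gave 3 to 6. Quantile normalization and centring gave 4 each, and over all genes the lower and higher calls were 134 and 100 with the former. The kidney trend called 9 members, 4 among genes at or above the median level, and 5 to 9 with each array left out, with 5 without control replicate 2. Its lower and higher calls over all genes were 147 and 51, or 105 and 107 with arrays centred. The difference between organs called 1 member, 0 with quantile normalization, 0 with centring, 2 with array weights, and 0 to 2 with each array left out, with 2 without liver replicate 2 of 1000 mg/kg. The cause of these changes was not tested, and some of these alternatives also had fewer genes or arrays. With the replicate number as a block, 6 members were called in kidney at 1000 mg/kg, 7 in the trend and 0 in the difference between organs. Within an organ, deviations of same-numbered arrays at different doses correlated by -0.22 to 0.30 in liver and -0.32 to 0.31 in kidney. Their medians were -0.0037 in liver and 0.0794 in kidney, against -0.0071 and -0.0254 for arrays with different numbers. In liver 8 of 25 and in kidney 4 of 24 arrays correlated best with their own number. These values cannot tell whether liver and kidney arrays of 1 number came from 1 rat. Hells in liver changed sign without replicate 2 of 1000 mg/kg, from 0.16 to -0.00012, and ranged up to 0.28 with other arrays left out. Counts for the other comparisons were 0 under every alternative run. The number of arrays and, for members near background, the signal limit these results.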
